A study of Mus musculus with 31 samples.

Results

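The messenger RNA of 10 receptors and surface markers of macrophages and microglia was followed in RM-9 and MC-38 tumors after radiation therapy (RT). The genes were Adgre1, Cd68, Csf1r, Cx3cr1, Lair1, Gpr65, Mertk, Cd14, Fcgr1 and Trem2, taken by name from the 46072 genes listed for every tumor. Cx3cr1, Lair1 and Gpr65 were picked because their levels were much lower after RT than in the control tumors, so their values in those comparisons are given as a description with no test. The other 7 were picked as macrophage genes, to see which of them were lower along with these 3, and were tested.

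All tumors grew in wild-type male C57BL/6J mice that were 6 to 7 weeks old when obtained. RM9 cells, a mouse prostate cancer line, or MC38 cells, a mouse colon cancer line, were placed under the skin of the right hind leg, and each model is therefore 1 cell line in an immunocompetent host. Once tumors measured 8 mm across, the treated mice received a single dose of 15 Gy and their tumors were taken 3 h, 12 h or 24 h later, while the control mice received no treatment and carry the 3 h label. There were 4 mice in every group except RM-9 at 24 h, which had 3, giving 31 tumors with 1 sequencing library from each. Because the controls were all taken at 1 time, RT and the hours that passed after it cannot be told apart at 12 h and 24 h. Within a model the same 4 controls served for all 3 times, so those comparisons are not independent of each other. Whether the tumor models were handled together is not stated, so a difference between the lines cannot be told apart from a difference in handling.

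Macrophages in a tumor come largely from blood monocytes, and they depend on Csf1r, the receptor for the growth factors CSF1 and IL-34, to survive. Adgre1 encodes F4/80, a surface protein used to identify mouse macrophages, and Cd68 encodes a glycoprotein of their lysosomes. Cx3cr1 is the receptor for the chemokine CX3CL1 and is abundant in microglia, the resident macrophages of the brain, and in some monocytes. Lair1 is an inhibitory receptor that binds collagen, and Gpr65 is a G protein-coupled receptor that senses extracellular acid. Mertk is a receptor tyrosine kinase for the uptake of dying cells, Cd14 a co-receptor for bacterial lipopolysaccharide, Fcgr1 the high-affinity receptor for IgG, and Trem2 a lipid-sensing receptor that signals through the adaptor TYROBP.

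The DNA just upstream of these genes is shown for the 3 that chose the comparison. It is also shown for Fcgr1 and Trem2, picked because they share a short motif there with Lair1 and Gpr65. The promoters of Cd68 and Mertk, which lack this motif, are not shown. PU.1 is a transcription factor that macrophages need in order to form, and the core of its binding site, GAGGAAG, reads CTTCCTC on the other strand. The sequences run 5′ to 3′ along each gene and end 1 base before its start in RefSeq on GRCm38.p6, with CTTCCTC and, in Trem2, the AP-1 motif TGANTCA in capitals. The windows of 250 bases lie at chr9:120068297-120068546 on the minus strand for Cx3cr1, at chr7:4063205-4063454 on the minus strand for Lair1 and at chr12:98268385-98268634 on the plus strand for Gpr65.
Cx3cr1: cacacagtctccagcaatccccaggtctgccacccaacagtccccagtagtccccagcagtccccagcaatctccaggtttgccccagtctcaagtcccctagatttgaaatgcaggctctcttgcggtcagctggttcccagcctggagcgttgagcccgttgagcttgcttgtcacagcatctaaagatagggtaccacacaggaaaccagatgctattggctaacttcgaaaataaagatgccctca
Lair1: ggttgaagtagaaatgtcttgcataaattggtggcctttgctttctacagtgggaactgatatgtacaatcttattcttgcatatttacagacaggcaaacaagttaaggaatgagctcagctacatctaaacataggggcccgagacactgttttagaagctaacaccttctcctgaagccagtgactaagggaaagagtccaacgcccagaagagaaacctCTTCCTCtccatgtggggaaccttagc
Gpr65: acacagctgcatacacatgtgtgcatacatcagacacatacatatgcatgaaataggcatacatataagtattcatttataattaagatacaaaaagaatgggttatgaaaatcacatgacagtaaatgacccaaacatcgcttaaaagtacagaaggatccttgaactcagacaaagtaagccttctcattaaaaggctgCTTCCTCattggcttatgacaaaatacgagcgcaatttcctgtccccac
The last 60 bases lie at chr3:96293970-96294029 on the minus strand for Fcgr1 and at chr17:48346341-48346400 on the plus strand for Trem2.
Fcgr1: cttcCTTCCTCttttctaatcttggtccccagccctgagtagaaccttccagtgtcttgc
Trem2: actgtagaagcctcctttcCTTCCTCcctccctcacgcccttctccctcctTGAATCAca
Of the 10 genes, 7 had a promoter in the RefSeq table. GAGGAAG, searched on both strands of the 250 bases upstream, was found in 4 of the 7, namely Lair1, Gpr65, Fcgr1 and Trem2, and in 10.6% of all 32851 promoters in the table. Counted back from the start of the gene, the match began at base -27 in Lair1, -49 in Gpr65, -56 in Fcgr1 and -41 in Trem2. TGANTCA, the site of AP-1, was found in Cd68, with 2 matches at -149 and -24, and in Trem2, with 1 at -9, against 6.75% of all promoters. A match describes these letters alone, and binding was not measured. Results are given for the PU.1 and AP-1 motifs only, and other motifs are not reported here.

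Levels are given in TPM, in which transcripts are scaled for their length and to the same total in every library. The depth, estimated from FPKM and coverage, was 21.4 to 29.4 M reads of 75 bases a library. Mitochondrially encoded transcripts took 47.3 to 57.2% of the TPM in RM-9 and 22.5 to 40.6% in MC-38, and within RM-9 the 12 h tumors (52.4 to 57.2%) lay above the controls (47.8 to 50.5%). The share of skeletal muscle RNA also moved between groups. Summed over 6 muscle genes it was 246 to 2324 TPM in RM-9 controls against 2.75 to 956 at 12 h, and 18.2 to 11422 TPM in MC-38 controls against 5.68 to 474 at 12 h. Its part in the results was not tested, and MC-38 control mouse 1, the mouse with 11422 TPM and 40.6% mitochondrial transcripts, was left out in turn.

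Markers of macrophages were present throughout, while those of microglia were mixed. All 10 genes were detected in every library, and Cd68, the highest, lay between 30.2 and 127 TPM. Of the genes that mark microglia, Tmem119 (2.85 to 9.23 TPM) and Olfml3 (2.98 to 10.7 TPM) were present in every library, but tumor cells and stroma can express these as well. P2ry12, Siglech and Slc2a5, singled out after their values were seen, lay at 0.389 to 2.49, 0 to 0.607 and 0 to 0.373 TPM. Of the same list, and also named after their values were seen, Fcrls lay at 0.309 to 9.60 TPM and Sall1 at 1.21 to 5.44 TPM. P2ry13 lay at 0.484 to 2.97 TPM and Gpr34 at 0.210 to 0.933 TPM. These tumors grew outside the brain, and the genes are therefore called macrophage genes here. In unsorted tumor tissue, fewer cells of a type and less RNA per cell cannot be told apart.

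Before RT, all 10 genes were higher in MC-38 than in RM-9 tumors. Tumor line and handling cannot be told apart in this comparison. Fcgr1 showed the widest gap, with levels of 40.9, 40.2, 37.04 and 54.6 TPM in the 4 MC-38 controls against 9.60, 9.15, 6.62 and 11.9 TPM in the 4 RM-9 controls. Lair1 followed, with 14.2, 16.7, 14.8 and 21.1 TPM against 2.73, 5.13, 3.55 and 3.98 TPM. No mouse of one model reached the other in either gene.
On the log2(TPM + 0.5) scale the differences, MC-38 minus RM-9, were 2.17 ± 0.27 (SE) for Fcgr1, 2.00 ± 0.27 (SE) for Lair1, 1.91 ± 0.23 (SE) for Adgre1 and 1.50 ± 0.21 (SE) for Gpr65. Cx3cr1 differed by 1.38, Trem2 by 1.11, Cd68 by 0.93, Cd14 by 0.68, Csf1r by 0.58 and Mertk by 0.49. Adjusted p in limma ran from 2.87e-08 for Adgre1 to 0.0178 for Mertk, and all 10 passed the threshold of 0.05, where 64.7% of all genes tested passed in the same direction. In 8 of the 10, Csf1r and Mertk being the others, every MC-38 control lay above every RM-9 control, as did 50.9% of all genes. TPM of a library add up to a fixed total, so the larger mitochondrial share of RM-9 lowers the values of its other genes. With the libraries rescaled by their median ratio, the split over all genes went from 9943 higher and 1641 lower to 5088 and 4901. Of the macrophage genes, 5 of 10 (Adgre1, Cx3cr1, Lair1, Gpr65 and Fcgr1) still passed, and Csf1r (-0.073) and Mertk (-0.11) turned to the other side of 0. With TPM taken without mitochondrially encoded genes, the split over all genes was 7196 higher and 3500 lower. In that setting Csf1r, Mertk and Cd14 did not pass (adjusted p = 0.567, 0.628 and 0.179 in limma). The part of the mitochondrial share in these differences was not tested.

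**Figure D1:**
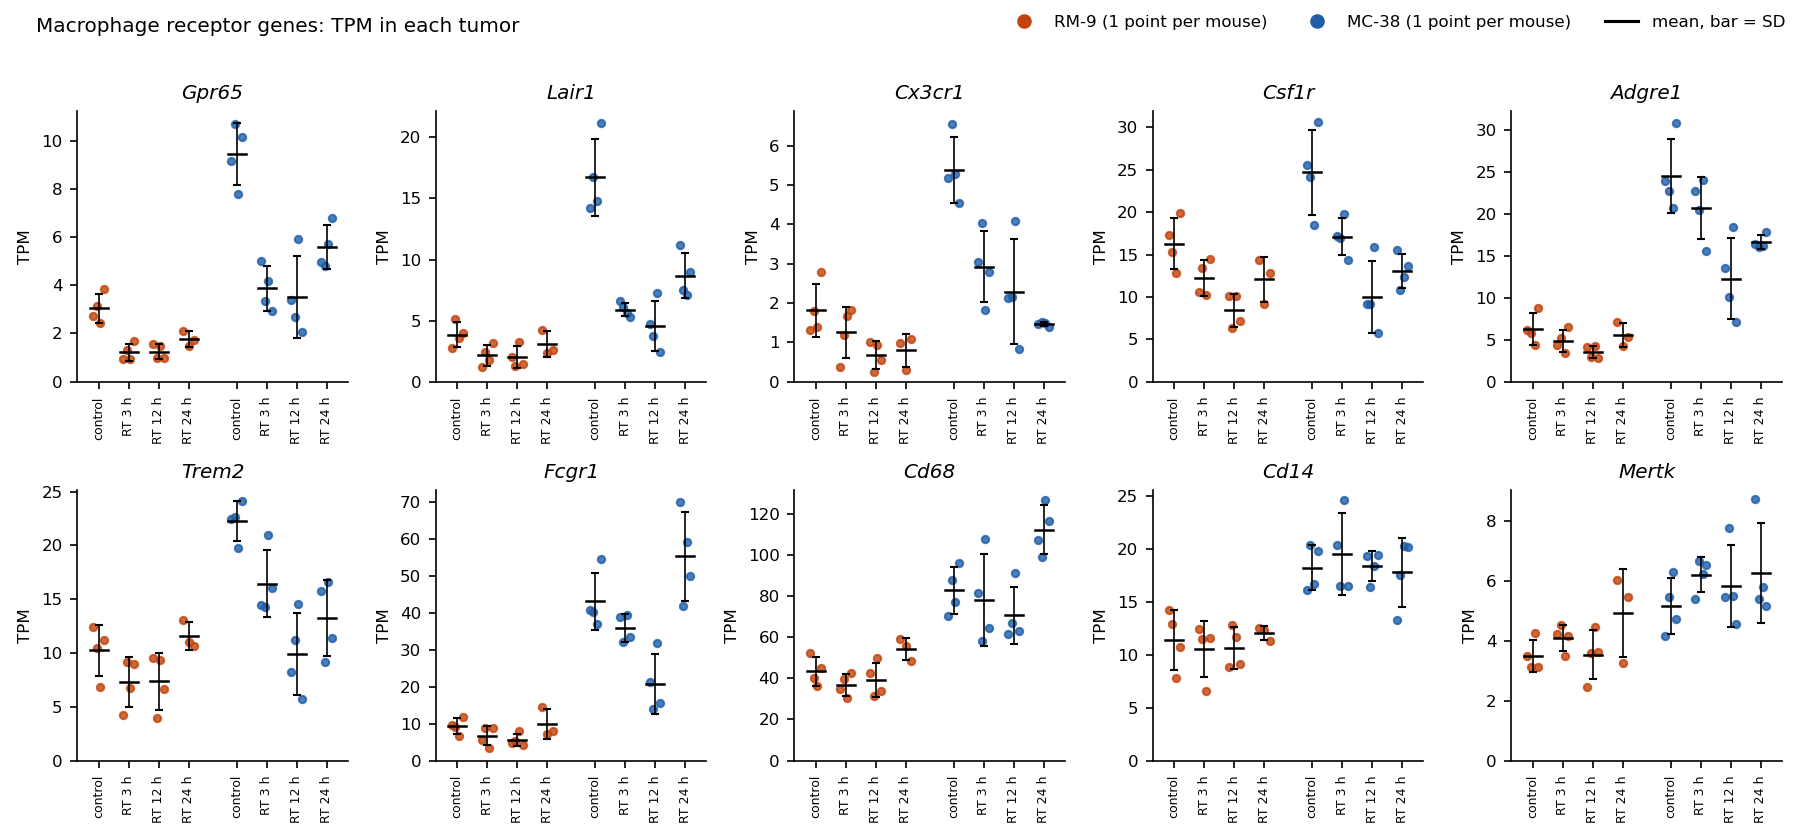
TPM of each macrophage gene in every tumor, by group (control, 3 h, 12 h and 24 h after RT) and tumor model. Each point is 1 mouse, and the bars give the group mean and SD. The MC-38 controls lay above the RM-9 controls without overlap for 8 of the 10 genes, and the lowest group means of Gpr65, Lair1 and Csf1r were those at 3 h or 12 h.

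After RT, the tested genes that passed were Csf1r in both models and Adgre1, Trem2 and Fcgr1 in MC-38, all of them lower, and most of the calls fell at 12 h. At 12 h in MC-38, 4 of the 7 tested genes fell, where 2.59% of all genes did. At 24 h in MC-38, 2 of 7 were lower (Csf1r and Trem2), against 0.548% of all genes, and at 12 h in RM-9, 1 of 7 was (Csf1r), against 8.3%. In the other direction limma called 0 of 7 at 12 h and at 24 h of MC-38, where 28.5% and 13.2% of all genes were higher, with 0 and 1 (Cd68) at an unadjusted p under 0.05. limma called 0 of 7 at 3 h in RM-9 (background 0.0285%; 1 with an unadjusted p under 0.05), 0 of 7 at 24 h in RM-9 (background 0%; 0 unadjusted) and 0 of 7 at 3 h in MC-38 (background 0.0127%; 1 unadjusted). Dunnett's comparisons on TPM, gene by gene, called 0, 0 and 1 in those 3, the last being Csf1r.
The median change of the 7 tested genes was -1.04 at 12 h in MC-38, beside 0.33 over all genes. At 12 h in RM-9 it was -0.49, beside -0.19. At 3 h the same medians were -0.24 in MC-38 (0.19 over all genes) and -0.33 in RM-9 (0.056). At 24 h they were -0.046 in MC-38 (0.22) and 0.11 in RM-9 (-0.04). With the 3 genes chosen for their fall included, the medians of the 10 genes at 3, 12 and 24 h were -0.35, -1.15 and -0.62 in MC-38. In RM-9 they were -0.42, -0.71 and -0.057. Nothing is read from these medians of 10, which include genes chosen for being lower.
The shift of all genes differed between the models at 12 h, and median-ratio scaling, which sets it to about 0, changed the split of calls over all genes from 4469 higher and 406 lower to 993 and 1541 in MC-38 at 12 h and from 2073 and 86 to 1226 and 1279 at 24 h, and from 10 higher and 1163 lower to 13 and 6 in RM-9 at 12 h. The 4 calls of MC-38 at 12 h were made under that scaling too, with Cd68 as the fifth, whereas the RM-9 call of Csf1r was not (adjusted p = 0.134).

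**Figure D2:**
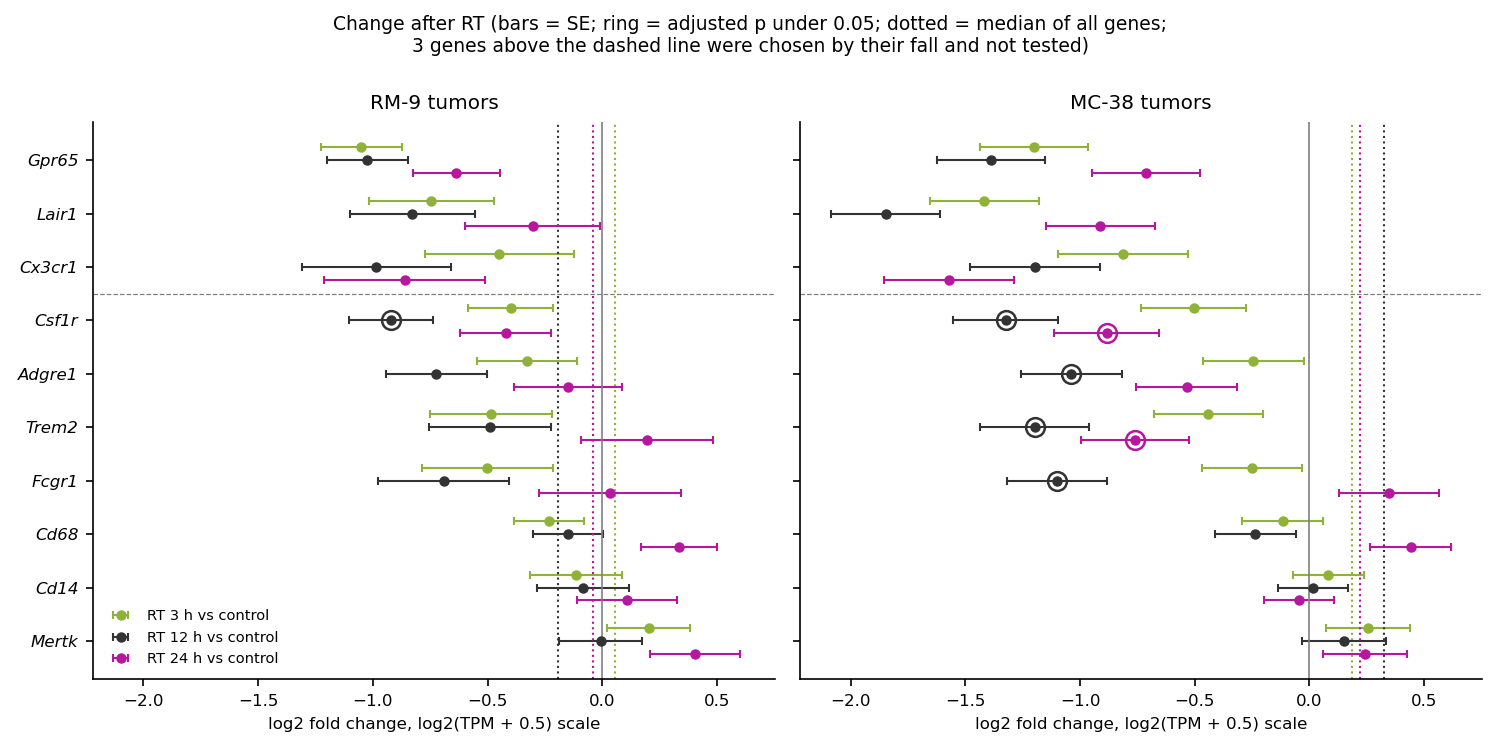
Change of each macrophage gene against the controls of its model on the log2(TPM + 0.5) scale, with a panel for each tumor model and a color for each time after treatment. Points are limma estimates with bars of 1 SE, rings mark tested genes with an adjusted p under 0.05, dotted lines give the median of all genes, and the 3 genes above the dashed line were not tested. Gpr65, Lair1, Cx3cr1, Csf1r and Adgre1 lie below 0 at every time in both models, while the estimates of Cd14 and Mertk lie between -0.11 and 0.40.

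Gpr65, the acid sensor, was lower at 3 h already, and by a like share in both models. Its levels in RM-9 were 2.72, 3.13, 2.44 and 3.86 TPM in the controls and 0.933, 1.32, 0.936 and 1.68 TPM at 3 h. They were 1.55, 0.984, 1.47 and 0.962 TPM at 12 h and 2.11, 1.48 and 1.71 TPM at 24 h. Every irradiated RM-9 tumor lay below every control tumor at each of the 3 times.
In MC-38 the controls held 9.16, 10.7, 7.77 and 10.2 TPM of Gpr65, and the 3 h tumors 5.02, 3.35, 4.16 and 2.94 TPM. At 12 h the levels were 3.40, 2.67, 5.92 and 2.05 TPM and at 24 h 4.98, 4.81, 5.71 and 6.80 TPM. Again no irradiated tumor reached the lowest control. As a share of the control mean, Gpr65 stood at 40.03%, 40.9% and 58.2% in RM-9 and at 40.9%, 37.2% and 59.02% in MC-38 at 3, 12 and 24 h. The log2 differences from control were -1.05 ± 0.18 (SE), -1.02 ± 0.18 (SE) and -0.64 ± 0.19 (SE) in RM-9, and -1.20 ± 0.24 (SE), -1.39 ± 0.24 (SE) and -0.71 ± 0.24 (SE) in MC-38. An antisense transcript, Gm47566, overlaps the end of Gpr65 (chr12:98268635-98276624, plus strand in the files), and whether reads were assigned by strand is not stated.

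Lair1, the collagen receptor at chr7:4007073-4063204, minus strand, was lower by a larger share in MC-38 than in RM-9. In MC-38 its levels were 14.2, 16.7, 14.8 and 21.1 TPM in the controls and 6.56, 6.07, 5.64 and 5.31 TPM at 3 h. They were 4.76, 3.73, 7.29 and 2.39 TPM at 12 h and 11.2, 7.51, 7.07 and 8.98 TPM at 24 h. Every irradiated MC-38 tumor was below every control, and the mean at 24 h was closer to that of the controls than the mean at 12 h.
In RM-9 the controls held 2.73, 5.13, 3.55 and 3.98 TPM of Lair1, the 3 h tumors 1.18, 2.42, 1.81 and 3.20 TPM and the 12 h tumors 2.01, 1.31, 3.24 and 1.46 TPM. At 24 h the levels were 4.26, 2.32 and 2.58 TPM. The RM-9 groups overlapped at each time: 1 tumor at 3 h and 1 at 12 h lay above the lowest control but no other, and 1 at 24 h lay above 3 of the 4 controls. The means were 35.2%, 27.2% and 51.9% of control in MC-38 at 3, 12 and 24 h and 55.9%, 52.1% and 79.3% in RM-9. The log2 differences were -1.42 ± 0.24 (SE), -1.85 ± 0.24 (SE) and -0.91 ± 0.24 (SE) in MC-38, and -0.74 ± 0.27 (SE), -0.83 ± 0.27 (SE) and -0.30 ± 0.29 (SE) in RM-9. At 12 h the MC-38 difference less the RM-9 difference was -1.02 ± 0.38 (SE), which was not tested because the gene was chosen on these changes. Read coverage of Lair1 was 0.304 to 0.641 times what its FPKM, another length-scaled unit in the files, implied. This share differed between libraries, so its level relative to other genes and the size of its changes are both uncertain.

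Cx3cr1, the chemokine receptor, had the lowest mean of the 10 genes in the RM-9 controls, and of the 3 it was the one whose lowest MC-38 mean came at 24 h. In MC-38 its levels were 5.17, 6.56, 5.27 and 4.54 TPM in the controls and 3.05, 4.03, 1.83 and 2.78 TPM at 3 h. They were 2.12, 2.15, 4.07 and 0.826 TPM at 12 h and 1.47, 1.52, 1.48 and 1.40 TPM at 24 h. No irradiated MC-38 tumor reached the lowest control, the 12 h tumors were the most scattered, and the 4 tumors at 24 h were nearly equal.
In RM-9 the controls held 1.30, 1.80, 1.39 and 2.78 TPM of Cx3cr1 and the 3 h tumors 0.380, 1.18, 1.67 and 1.82 TPM. The 12 h tumors held 0.997, 0.247, 0.935 and 0.543 TPM and the 24 h tumors 0.982, 0.307 and 1.10 TPM. The 3 h tumors overlapped the controls, whereas those at 12 h and 24 h did not. The means were 54.3%, 42.6% and 27.2% of control in MC-38 and 69.3%, 37.4% and 43.7% in RM-9. The log2 differences were -0.81 ± 0.28 (SE), -1.20 ± 0.28 (SE) and -1.57 ± 0.28 (SE) in MC-38, and -0.45 ± 0.33 (SE), -0.99 ± 0.33 (SE) and -0.86 ± 0.35 (SE) in RM-9. The span of Cx3cr1 in the files (chr9:119901616-120068283, minus strand) takes in several other genes, among them Xirp1, a striated muscle gene on the same strand with 0 to 8.43 TPM over the 31 libraries. Whether reads from these genes were counted for Cx3cr1 was not tested.

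Csf1r, the survival receptor of macrophages, fell at 12 h in both models and was still lower at 24 h in MC-38. On GRCm38 it lies at chr18:61105572-61132149, plus strand. In MC-38 its levels were 25.5, 24.2, 18.4 and 30.7 TPM in the controls and 17.2, 16.9, 19.8 and 14.4 TPM at 3 h. They were 9.19, 9.22, 15.9 and 5.74 TPM at 12 h and 15.5, 10.8, 12.4 and 13.6 TPM at 24 h. All 12 h and 24 h tumors lay below the lowest control, and the 3 h tumors overlapped it.
The change in MC-38 was -1.32 ± 0.23 (SE) at 12 h (adjusted p = 0.00537 in limma), or -1.65 relative to the median of all genes, and -0.88 ± 0.23 (SE) at 24 h (adjusted p = 0.0202). At 3 h it was -0.51 ± 0.23 (SE) (adjusted p = 0.239), with a 95% interval of -0.99 to -0.019. Without MC-38 control mouse 1 the adjusted p was 0.0126 at 12 h and 0.0477 at 24 h, and the 24 h value became 0.0599 when control mouse 4 was dropped and 0.0614 when 24 h mouse 2 was.
In RM-9 the controls held 17.2, 15.2, 12.8 and 19.9 TPM of Csf1r and the 3 h tumors 10.6, 13.4, 10.2 and 14.5 TPM. The 12 h tumors held 10.1, 6.30, 10.1 and 7.21 TPM, all below the controls, and the 24 h tumors 14.3, 9.15 and 12.8 TPM. The change at 12 h was -0.92 ± 0.18 (SE) (adjusted p = 0.0246 in limma), and it passed the threshold neither under median-ratio scaling nor without mitochondrially encoded genes (0.134 and 0.0876). Leaving out control mouse 1, 2 or 4, or 12 h mouse 1 or 4, also took its adjusted p above 0.05 (0.0583, 0.0559, 0.103, 0.0540 and 0.0662). The changes at 3 h and 24 h, -0.40 and -0.42, did not pass (adjusted p = 0.222 and 0.999). The 3′ end of Csf1r overlaps Hmgxb3 on the other strand, which had 4.31 to 16.9 TPM.

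Adgre1, which encodes F4/80 and lies at chr17:57358686-57483529, plus strand, fell at 12 h in MC-38. The MC-38 controls held 23.99, 22.8, 20.7 and 30.9 TPM and the 3 h tumors 22.8, 20.5, 24.01 and 15.6 TPM. The 12 h tumors held 13.5, 10.1, 18.4 and 7.08 TPM and the 24 h tumors 16.4, 16.1, 16.2 and 17.9 TPM. The 12 h tumors were all below the controls but ranged widely, and the 24 h tumors were close together just below them.
The change was -1.04 ± 0.22 (SE) at 12 h (adjusted p = 0.0105 in limma; -1.36 relative to the median gene; adjusted p = 0.0211 without control mouse 1). At 24 h it was -0.53 ± 0.22 (SE) (adjusted p = 0.114; 0.0492 under median-ratio scaling), and at 3 h -0.24 (adjusted p = 0.504). In RM-9 the controls held 6.12, 5.80, 4.38 and 8.84 TPM and the 12 h tumors 4.18, 2.96, 4.23 and 2.84 TPM. These groups did not overlap, yet the change of -0.72 ± 0.22 (SE) missed the threshold (adjusted p = 0.0525 in limma), with a 95% interval of -1.19 to -0.26. Without RM-9 control mouse 3 it passed (adjusted p = 0.0293). The RM-9 tumors at 3 h (3.40 to 6.50 TPM) and 24 h (4.24 to 7.07 TPM) overlapped the controls.

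Trem2 and Fcgr1, receptors that signal through the adaptors TYROBP and FCER1G, both fell at 12 h in MC-38. Trem2 lies at chr17:48346401-48354147, plus strand, and Fcgr1 at chr3:96282909-96293969, minus strand. Trem2 levels were 22.5, 22.7, 19.7 and 24.1 TPM in the MC-38 controls and 14.4, 14.3, 20.96 and 16.01 TPM at 3 h. They were 8.21, 11.2, 14.6 and 5.73 TPM at 12 h and 15.8, 9.18, 16.6 and 11.4 TPM at 24 h, all below the controls. The change of Trem2 was -1.20 ± 0.24 (SE) at 12 h (adjusted p = 0.00842 in limma) and -0.76 ± 0.24 (SE) at 24 h (adjusted p = 0.0439), against -0.44 at 3 h (adjusted p = 0.291). The 24 h call was lost without control mouse 1, 2 or 4 (adjusted p = 0.0881, 0.0719 and 0.0967) and without RT mouse 2 or 4 (0.138 and 0.119), while that at 12 h was kept without control mouse 1 (0.0190).
Fcgr1 took another course after 12 h. Its levels in MC-38 were 40.9, 40.2, 37.04 and 54.6 TPM in the controls and 38.9, 32.1, 39.5 and 33.4 TPM at 3 h. They were 21.4, 13.9, 31.95 and 15.7 TPM at 12 h and 70.03, 42.1, 59.3 and 50.1 TPM at 24 h. All 12 h tumors lay below the controls, and the 24 h tumors all lay above the 12 h tumors and reached past the controls.
Fcgr1 changed by -1.10 ± 0.22 (SE) at 12 h (adjusted p = 0.00842 in limma; 0.0176 without control mouse 1) and by 0.35 ± 0.22 (SE) at 24 h (adjusted p = 0.296). Relative to the median gene, the 12 h changes were -1.52 for Trem2 and -1.43 for Fcgr1. In RM-9 neither gene passed. Trem2 was 6.88 to 12.4 TPM in the controls, 4.28 to 9.19 at 3 h, 3.95 to 9.51 at 12 h and 10.7 to 13.1 at 24 h, and Fcgr1 was 6.62 to 11.9, 3.52 to 8.83, 4.18 to 8.00 and 7.09 to 14.5 TPM, so every RM-9 group overlapped its controls. Their changes at 12 h in RM-9 were -0.49 ± 0.27 (SE) with a 95% interval of -1.06 to 0.077 for Trem2 and -0.69 ± 0.29 (SE) with -1.30 to -0.083 for Fcgr1 (adjusted p = 0.219 and 0.118). Coverage of Trem2 was 0.225 to 0.255 times what its FPKM implied, and as with Lair1 its level relative to other genes is uncertain.

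Cd68, Cd14 and Mertk passed no test against control in either model. Cd68 lies at chr11:69664213-69666153, minus strand, Cd14 at chr18:36725074-36726736, minus strand and Mertk at chr2:128698956-128802894, plus strand. Cd68, the lysosomal glycoprotein, was 70.3 to 96.1 TPM in the MC-38 controls, 58.3 to 108 at 3 h, 61.5 to 91.2 at 12 h and 99.1 to 127 at 24 h. At 24 h all 4 tumors lay above all 4 controls, and the change was 0.44 ± 0.18 (SE) (adjusted p = 0.103 in limma, 95% interval 0.068 to 0.81). It was -0.24 ± 0.18 (SE) at 12 h (adjusted p = 0.282), where median-ratio scaling gave -0.58 (adjusted p = 0.0399). In RM-9, Cd68 was 36.1 to 52.3 TPM in the controls and 30.2 to 42.6, 31.4 to 49.6 and 48.7 to 59.2 TPM at 3, 12 and 24 h, with changes of -0.23, -0.15 and 0.34.
Cd14, the lipopolysaccharide co-receptor, was 16.1 to 20.3 TPM in the MC-38 controls and 16.5 to 24.6, 16.4 to 19.4 and 13.3 to 20.2 TPM at 3, 12 and 24 h. Its change at 12 h was 0.016 ± 0.15 (SE), with a 95% interval of -0.31 to 0.34, which leaves out a fall as large as those of Csf1r, Adgre1, Trem2 and Fcgr1. In RM-9 it was 7.78 to 14.3 TPM in the controls and 6.60 to 12.5, 8.79 to 12.8 and 11.3 to 12.5 TPM after RT, and the change at 12 h was -0.085 ± 0.20 (SE) with a 95% interval of -0.51 to 0.34.
Mertk, the receptor for the uptake of dying cells, was 4.16 to 6.29 TPM in the MC-38 controls and 5.38 to 6.66, 4.57 to 7.76 and 5.14 to 8.70 TPM after RT. In RM-9 it was 3.13 to 4.26 TPM and then 3.48 to 4.51, 2.46 to 4.44 and 3.24 to 6.02 TPM. All groups overlapped. The 12 h change of Mertk was 0.15 ± 0.18 (SE) in MC-38 (95% interval -0.24 to 0.54) and -0.0063 ± 0.18 (SE) in RM-9 (95% interval -0.39 to 0.38). An antisense transcript, Gm14011, lies within Mertk and had 0 to 6.19 TPM.

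Counted over the 10 genes without a model, the tumors after RT were all below the controls in 3 genes at 3 h in MC-38 (Gpr65, Lair1 and Cx3cr1), where 0.975% of all genes were, in 7 at 12 h (1.97%) and in 6 at 24 h (0.898%). In RM-9 the counts were 1 at 3 h (2.87%), 4 at 12 h (19.4%) and 2 at 24 h (2.24%). Nothing is read from the 3 genes that were chosen this way. Among the 7 tested genes the counts were 0, 4 and 3 in MC-38 and 0, 2 and 0 in RM-9. A gene with all tumors above the controls was seen once, Cd68 at 24 h in MC-38 (14.8% of all genes). The 2 of 7 in RM-9 at 12 h, Csf1r and Adgre1, are not far from the share over all genes.

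Comparisons between times after RT left the controls out. Fcgr1 rose from 12 h to 24 h in MC-38, by 1.45 ± 0.22 (SE) (adjusted p = 0.00257 in limma), the only 1 of the 7 to pass there, where 1.39% of all genes rose (218 higher and 46 lower, or 572 and 304 under median-ratio scaling). Cd68 differed in the same direction by 0.68 ± 0.18 (SE) (adjusted p = 0.066). Csf1r fell between 3 h and 12 h in RM-9, by 0.52 on the log2 scale (SE 0.18, adjusted p = 0.0462 in limma), 1 of 7 in a comparison where 28.7% of all genes fell and which median-ratio scaling changed from 47 higher and 4015 lower to 98 and 34. Csf1r did not pass under that scaling. Between 12 h and 24 h in RM-9, 0 of 7 were called (0% of all genes higher), with 5 at an unadjusted p under 0.05 in limma. Between 3 h and 12 h in MC-38, 0 of 7 were called (0% of all genes lower), with 4 at an unadjusted p under 0.05.

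Whether a gene changed differently in the tumor models was tested as an interaction. limma called 0 of 7 genes at 3 h (background 0% lower and 0% higher), 0 of 7 at 12 h (0.469% and 44.9%) and 0 of 7 at 24 h (0% and 1.81%), with 0, 0 and 1 at an unadjusted p under 0.05. The largest at 12 h and at 24 h was Trem2, where the MC-38 change less the RM-9 change was -0.71 ± 0.37 (SE) at 12 h (adjusted p = 0.115, 95% interval -1.47 to 0.058) and -0.96 ± 0.39 (SE) at 24 h (adjusted p = 0.153, 95% interval -1.75 to -0.16). For Csf1r the difference at 12 h was -0.40 ± 0.31 (SE), with a 95% interval of -1.03 to 0.22. The median of all genes in these differences was 0.13, 0.50 and 0.25 at 3, 12 and 24 h, and median-ratio scaling moved the split at 12 h from 6903 higher and 72 lower to 232 and 200. A gene that passed in MC-38 and not in RM-9 was therefore not shown to differ between them.

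The macrophage genes were next set against leukocytes as a whole. The mean of log2(TPM + 0.5) over 8 genes that most leukocytes express (Ptprc, Cd53, Laptm5, Coro1a, Cd48, Lcp1, Itgb2 and Arhgdib) was subtracted from that of each gene in the same tumor, which cancels any scaling of a library apart from the 0.5. The leukocyte mean itself stood at -0.32, -0.77 and -0.11 against control at 3, 12 and 24 h in MC-38 and at -0.20, -0.52 and 0.069 in RM-9. Of the 8 leukocyte genes, limma called 7 higher in untreated MC-38 than in untreated RM-9, and Arhgdib lower. Ratios were compared within a model only. The ratios are a description, with no test.
Gpr65 was below all controls at all times in both models by this measure, with mean differences of -0.85, -0.50 and -0.70 in RM-9 and -0.88, -0.62 and -0.60 in MC-38. Lair1 was below all controls in every irradiated MC-38 tumor, with mean differences of -1.09, -1.08 and -0.80, and overlapped its controls in RM-9. Cx3cr1 left the range of its controls at 24 h only, by -0.93 in RM-9 and -1.46 in MC-38.
Of the tested genes, Csf1r was lower relative to leukocytes at 12 h and 24 h without overlap, by -0.40 and -0.49 in RM-9 and -0.56 and -0.77 in MC-38. Set against Adgre1 instead, Csf1r overlapped its controls at both times (-0.20 and -0.27 in RM-9, -0.29 and -0.35 in MC-38). Set against Cd68, it lay below them at both (-0.77 and -0.76 in RM-9, -1.09 and -1.32 in MC-38). Relative to leukocytes, Adgre1 and Trem2 overlapped their controls at 12 h, with mean differences of -0.27 and -0.43 in MC-38, and were below them at 24 h in MC-38 (-0.42 and -0.65). Fcgr1 differed by -0.33 at 12 h in MC-38, overlapping its controls, and lay above them at 24 h, by 0.46. Cd68 lay above its controls at 12 h in RM-9 (0.37) and in MC-38 at both 12 h and 24 h (0.53 and 0.56), and Cd14 at 3 h and 12 h in MC-38 (0.40 and 0.78).
Of the 7 genes not chosen for their fall, 0, 1 and 1 were below all controls in RM-9 at 3, 12 and 24 h, where 0.521%, 0.114% and 0.785% of all genes were. In MC-38 the counts were 0, 1 and 3, where 0.395%, 0.319% and 0.452% were. Above all controls were 0, 1 and 0 of the 7 in RM-9 (17.7%, 16.8% and 0.699% of all genes) and 1, 2 and 2 in MC-38 (10.8%, 68.6% and 12.5%).

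**Figure D3:**
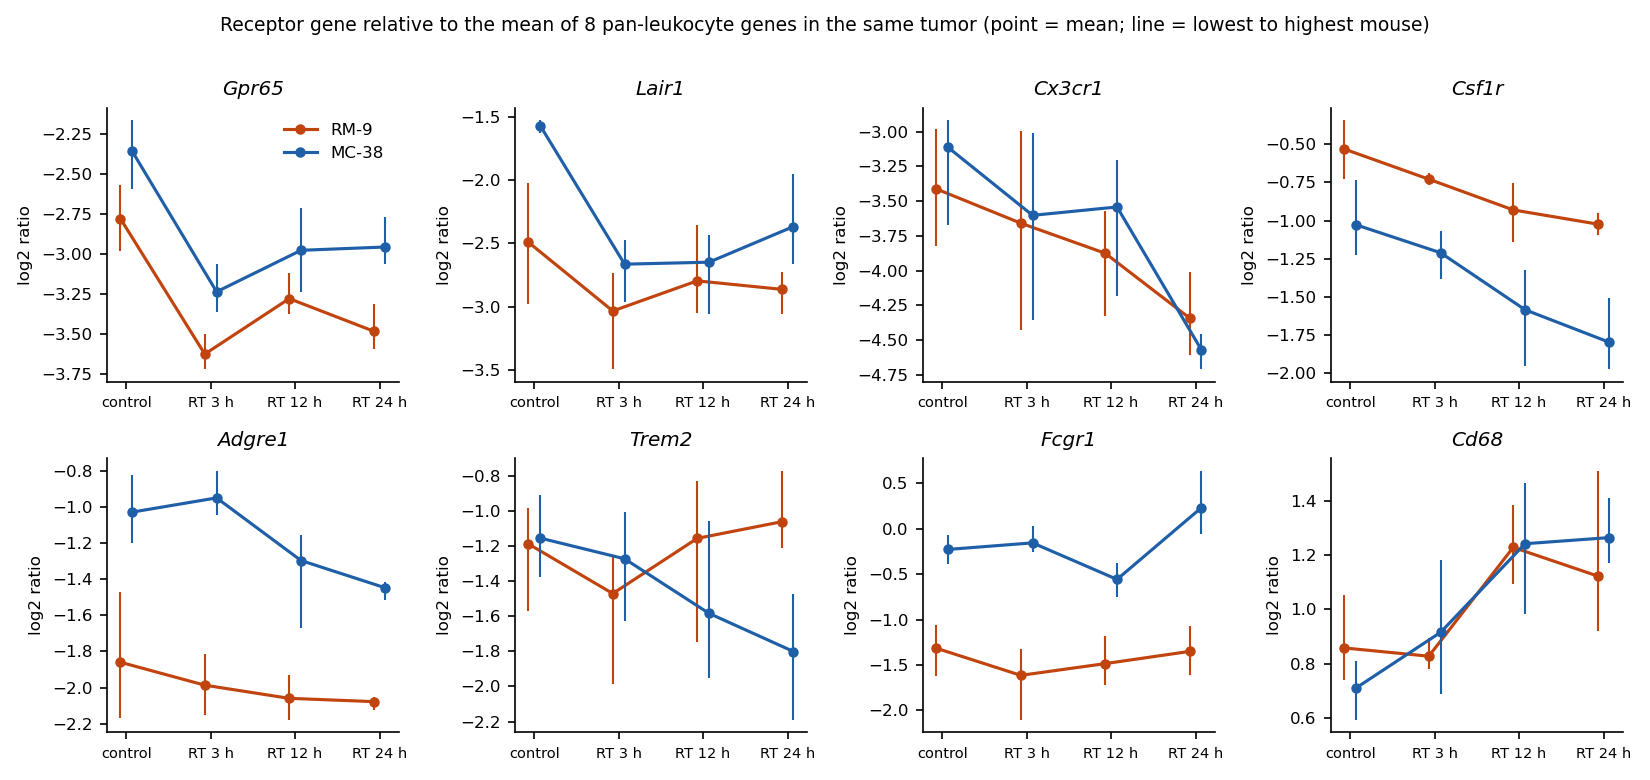
Log2 ratio of 8 of the macrophage genes to the mean of 8 pan-leukocyte genes in the same tumor, by group. Points are group means, joined within a model, and vertical lines run from the lowest to the highest mouse. Gpr65 lies below all controls at every time in both models, and Cd68 lies above all MC-38 controls at both later times.

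Other macrophage genes fell together with these. Of 20 further genes of this kind, 15 were lower at 12 h in MC-38, as were 2.59% of all genes, and 0 higher, with a median change of -1.08 against 0.33 over all genes. Among them were Ctss, a lysosomal protease, at -1.07 (adjusted p = 0.00523) in limma, and Lyz2, lysozyme, at -1.45 (adjusted p = 0.0157), whereas Lgals3, a galectin, was at 0.26 (adjusted p = 0.453). The count was 14 without MC-38 control mouse 1 or 12 h mouse 1 and 15 under median-ratio scaling. It was 12 without control mouse 4 or 12 h mouse 2 or 4, and also with only the compared groups in the fit. In RM-9 at 12 h, 8 of 20 were lower, against 8.3% of all genes, with a median of -0.52 against -0.19 over all genes, but 0 were under median-ratio scaling, and 2 with no filter on low values or with only the compared groups in the fit. That count was also 0 without control mouse 1, 2 or 4 or 12 h mouse 1 or 4, and 3 without 12 h mouse 2. At 3 h and 24 h limma called 0 of 20 in both models, with 9 and 0 at an unadjusted p under 0.05 in RM-9 and 5 and 4 in MC-38.

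Genes of other immune cells moved beside them, and their part in the results was not tested. Among all genes, 2.59% were lower at 12 h and 0.548% at 24 h in MC-38 and 8.3% at 12 h in RM-9, and 28.5% and 13.2% were higher in MC-38 at those times. All 8 pan-leukocyte genes were lower at 12 h in MC-38 (7 without control mouse 1, and 3 with only the compared groups in the fit) and 3 of 8 at 12 h in RM-9, where 0 passed under median-ratio scaling. The MC-38 count was 5 without control mouse 2, 4 without control mouse 4 or 12 h mouse 2, and 3 without 12 h mouse 4, and the RM-9 count was 0 without control mouse 1, 2 or 4 or 12 h mouse 1 or 4. Of 10 monocyte genes, 4 were lower at 12 h in MC-38, among them Ly6c2 at -1.11 (adjusted p = 0.0117), Plac8 at -0.77 (adjusted p = 0.027) and Ccr2, the receptor that brings monocytes into tissue, at -0.90 (adjusted p = 0.0106) in limma. At 24 h in MC-38, 4 monocyte genes were higher instead, with Ly6c2 at 1.04 (adjusted p = 0.0131) and Plac8 at 0.96 (adjusted p = 0.0146), although 0 of the 10 passed under median-ratio scaling or with only the compared groups in the fit, which gave 2 at 12 h. Without MC-38 control mouse 1 the monocyte counts were 3 at both times. The 12 h count was 2 without 12 h mouse 4, and the 24 h count was 2 without control mouse 2 or 24 h mouse 1, 3 or 4.
Of 10 T and NK cell genes, 4 were lower at 12 h and 3 at 24 h in MC-38, where all 10 were tested and 2.59% and 0.548% of all genes were lower, and 3 at 12 h in RM-9, where 5 were tested and 8.3% of all genes were lower. Of 8 neutrophil genes tested in MC-38, Mmp9, a protease, was higher at 24 h in MC-38, at 1.70 (adjusted p = 0.024), and S100a8 and S100a9 did not pass there (0.163 and 0.069). Of 8 microglia genes tested in MC-38, 3 were lower at 12 h, Tmem119 among them at -0.62 (adjusted p = 0.0265), and Sall1, named after its value was seen, was higher. In the dendritic cell list, Irf8 was lower at 12 h in RM-9, at -0.51 with adjusted p = 0.0465, and at 12 h in MC-38 Itgax was lower at -0.75 with adjusted p = 0.0323 and Zbtb46 higher at 0.66 with adjusted p = 0.0172, the latter also at 24 h.
Among the other lists, 2 of 3 B cell genes tested, Pax5 and Cd79a, were higher in MC-38 at both 12 h and 24 h, as were 2 of 5 endothelial genes (Cdh5 and Kdr) at 24 h and 1 of 5 fibroblast genes (Pdgfra) at 12 h in MC-38, and Krt18, 1 of 4 epithelial genes, was lower at 12 h in RM-9; these names outside the highest of their lists were given after the values were seen. Over all genes 28.5% were higher at 12 h and 13.2% at 24 h in MC-38 and 8.3% lower at 12 h in RM-9. Counts with a mouse left out are not reported here for these lists, nor for the T and NK cell, neutrophil, microglia and dendritic cell lists. limma called 0 of 6 skeletal muscle genes in every comparison with control, although all 6 had an unadjusted p under 0.05 at 3 h and 12 h in RM-9, with medians of -4.96 and -4.18, and 0 of 6 in MC-38, where the median was -3.73 at 12 h.

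**Figure D4:**
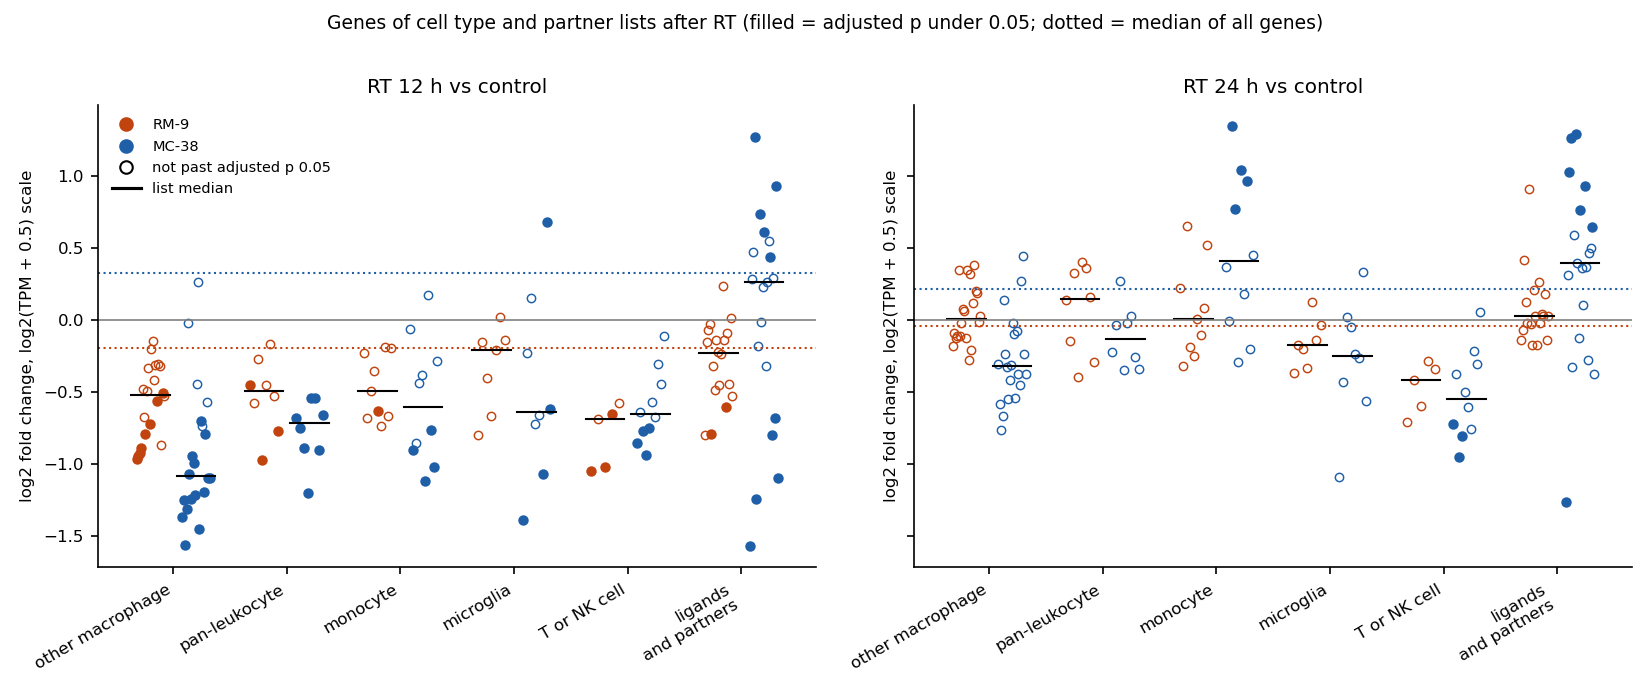
Change against control on the log2(TPM + 0.5) scale for the genes of 6 lists, by tumor model, in the tumors of 12 h (left) and 24 h (right). Each point is 1 gene, filled where its adjusted p was under 0.05, black lines are list medians and dotted lines the median of all genes. At 12 h in MC-38, 15 of 20 other macrophage genes and 8 of 8 pan-leukocyte genes were lower.

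Ligands and partners of the receptors did not follow 1 direction, and the number that rose was no larger, as a share, than over all genes at 12 h in MC-38. Of 19 tested there, 5 were higher, where 28.5% of all genes were, and 5 lower, where 2.59% were. Cx3cl1, the ligand of Cx3cr1, rose in MC-38 while its receptor was lower. The MC-38 controls averaged 9.30 ± 2.52 (SD, n = 4) TPM and the 3 h tumors 12.8 ± 4.28 (SD, n = 4) TPM. The mean was 22.7 ± 2.70 (SD, n = 4) TPM in the 12 h tumors, and the 24 h tumors had 22.5 ± 2.75 (SD, n = 4) TPM. The changes were 1.27 ± 0.21 (SE) at 12 h (adjusted p = 0.00516 in limma) and 1.26 ± 0.21 (SE) at 24 h (adjusted p = 0.00179). In RM-9 the means of Cx3cl1 were 4.14, 4.45, 4.12 and 4.55 TPM, and the models differed in this change at 12 h by 1.30 (adjusted p = 0.0026) and at 24 h by 1.14 (adjusted p = 0.04), where all genes had medians of 0.50 and 0.25.
Of the ligands of Csf1r, Il34 rose in MC-38 at 12 h, by 0.61 (adjusted p = 0.0369), and at 24 h, by 0.76 (adjusted p = 0.0234), and Csf1 at 24 h, by 1.02 (adjusted p = 0.0224). The mean of Csf1 went from 51.9 ± 21.3 (SD, n = 4) TPM in the MC-38 controls to 102 ± 31.9 (SD, n = 4) TPM at 24 h. Gpr132, a relative of Gpr65, rose in MC-38 by 0.74 (adjusted p = 0.0141) at 12 h and 1.29 (adjusted p = 0.00052) at 24 h, and differed between the models at both times (adjusted p = 0.00213 and 0.00913). Tyro3, a relative of Mertk, rose by 0.93 (adjusted p = 0.00516) and 0.64 (adjusted p = 0.0146), and Pros1, a ligand of Mertk, by 0.93 (adjusted p = 0.0121) at 24 h.
The partners that fell at 12 h in MC-38 were Tyrobp, Fcer1g, Apoe, Ptpn6 and Treml2. Tyrobp and Fcer1g are also counted in the list of other macrophage genes. Tyrobp, the adaptor of Trem2, changed by -1.09 (adjusted p = 0.00787), Fcer1g, the signaling chain of Fcgr1, by -1.24 (adjusted p = 0.00537), and Apoe, a lipoprotein that Trem2 binds, by -1.57 (adjusted p = 0.0163). Ptpn6, a phosphatase that Lair1 recruits, changed by -0.80 (adjusted p = 0.0196), and Treml2 by -0.68 (adjusted p = 0.0304). The related phosphatase Ptpn11 rose, by 0.44 (adjusted p = 0.049).
These rises stand beside a median of 0.33 at 12 h and 0.22 at 24 h over all genes. Under median-ratio scaling the counts at 12 h in MC-38 were 5 lower and 2 higher. At 24 h 1 was lower and 6 higher (1 and 4 under that scaling), against 0.548% and 13.2% of all genes, and with only the compared groups in the fit 0 were lower and 2 higher, beside 3 and 3 at 12 h. In RM-9, Fcer1g at -0.79 (adjusted p = 0.0254) and Ptpn6 at -0.60 (adjusted p = 0.0498) were lower at 12 h, 2 of 18 tested, against 8.3% of all genes, and limma called 0 at 3 h and at 24 h, with 6 and 2 at an unadjusted p under 0.05. At 12 h in RM-9, 0 were lower and 1 higher under median-ratio scaling, 1 was lower with the replicate block, 0 were without control mouse 1, 2 or 4 or 12 h mouse 1 or 4, 1 was without 12 h mouse 2, and 4 were without control mouse 3. Without MC-38 control mouse 1 the MC-38 counts were 4 lower and 3 higher at 12 h and 0 lower and 4 higher at 24 h, so that the 24 h call of Apoe was lost, as it was without control mouse 2 or 4 or 24 h mouse 2 or 4. At 12 h, 3 were lower without control mouse 4 or 12 h mouse 2 or 4, and 3 were higher without control mouse 4 or 12 h mouse 1, 2 or 3.

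Across the 31 libraries, after the mean of each tumor model was taken out, each of the 3 genes was ranked against 12255 others by Pearson correlation of log2(TPM + 0.5). The points are libraries that share the RT groups and the scaling of each library, so these values only describe likeness. Csf1r was the gene closest to Cx3cr1 (r = 0.78), ahead of Ntpcr (0.77) and Sla (0.73). Among the other macrophage genes, Adgre1 ranked 17, Lair1 18, Gpr65 27 and Trem2 41, while Fcgr1 ranked 1195 and Cd68, Mertk and Cd14 ranked 5403, 5546 and 6750.
Lair1 and Gpr65 were close to each other. Gpr65 was the gene most like Lair1 (r = 0.91), followed by Tifab (0.89) and Sash3 (0.89). The genes most like Gpr65 were Clec4a3 (0.94), Coro1a (0.93), which is 1 of the 8 pan-leukocyte genes, and Sash3 (0.92), with Lair1 at rank 4. Csf1r, Adgre1, Trem2 and Fcgr1 ranked 43, 81, 98 and 123 for Lair1 and 63, 83, 157 and 165 for Gpr65. Cx3cr1 ranked lower for both, at 181 and 207, as did Cd68, at 514 and 441, and Cd14 and Mertk lay at 2662 and 3074 for Lair1 and at 1936 and 6641 for Gpr65.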

How the data were processed

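Tumor tissue from 31 mice was lysed and messenger RNA was sequenced with a stranded poly(A) protocol as single reads of 75 bases. The authors deposited 1 gene table per tumor with TPM, FPKM and read coverage, all computed by them before deposition. The aligner and counter were not given in the sources used here, nor was the use of strand in counting. The submitters' processing notes name bcl2fastq 2.17 and GRCm39, whereas the gene coordinates in the tables follow GRCm38: GENCODE M21 holds 45223 of the genes, with the chromosome identical for 100% and at least 1 end of the gene for 91.1%. Positions are therefore printed on GRCm38, as in the tables. Promoters came from RefSeq on GRCm38.p6.

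Groups followed the sample labels. TPM of genes listed more than once in a table were summed. Genes with a mean of at least 0.5 TPM in the fitted libraries were kept, all 10 members among them, log2(TPM + 0.5) was fitted with limma 3.58.1 in R 4.3.3 (eBayes with trend) over the 4 groups of a tumor model, or over all 31 libraries for comparisons between models, and p was adjusted by Benjamini-Hochberg over all genes tested, at 0.05. Fold changes on this scale understate those of low genes. Each library is 1 mouse, so p measures the spread between these mice. Raw counts were not used here, and the number of reads per library was estimated from FPKM and coverage. The members, marker lists and partner list were chosen with earlier results of these data known. The text names all 10 members, any ligand or partner, the 3 genes with the highest mean TPM of each marker list (1 microglia gene is not reported here), and the genes most correlated with Cx3cr1, Lair1 and Gpr65; other names are given as chosen later or only within a list. The 13 lists covered macrophages, microglia, monocytes, pan-leukocyte genes, neutrophils, dendritic cells, T and NK cells, B cells, endothelium, fibroblasts, skeletal muscle, epithelium, and ligands and partners. The settings varied were the pseudocount (0.1 or 1), the scaling (by median ratio, or TPM without mitochondrially encoded genes), no filter, a mean of at least 5 TPM, no trend, a replicate block, 2 groups per fit, leaving out each mouse, Dunnett's comparisons (scipy 1.17.1) and, added after the data were seen, coverage in place of TPM, list counts without MC-38 control mouse 1, and the share of all genes in the leukocyte ratio.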

Additional observations from a re-analysis of the deposited data

Results flagged for a closer look

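Dixon's test was run 70 times, each time on 1 gene in 1 group of 4 mice, and 1 check held a mouse set apart from its group. Chance flags about 1 in 20 of such checks, and checks of different genes share mice and are not independent. Cd14 in RM-9 tumors 3 h after RT was lowest in mouse 3, at 6.602 TPM, while the other mice lay between 11.51 and 12.47 TPM. Its gap took a share of 0.8371 of the range of the group, above the 95% critical value. Without it the change of Cd14 at 3 h in RM-9 was 0.0856, on the other side of 0 from that with all mice, and neither value passed a test.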

How the results depend on the processing

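The 4 calls at 12 h in MC-38 (Csf1r, Adgre1, Trem2 and Fcgr1) were made whichever mouse was left out, and settings other than that gave 4 to 5 calls. The cause of the changes below was not tested. In RM-9 at 12 h the count of 1 became 0 under median-ratio scaling and without mitochondrially encoded genes, 2 with a mean of at least 5 TPM, with coverage or with Dunnett's comparisons, and 0 to 2 with a mouse left out. Between 3 h and 12 h in RM-9 the count of 1 became 0 under both rescalings, with no filter, with no trend, with the replicate block and with 2 groups in the fit, and was 0 to 1 with a mouse left out. At 3 h in MC-38 Dunnett's comparisons called 1 in place of 0. At 24 h in MC-38 the count of 2 became 1 with no filter or with 2 groups, and 0 to 2 with a mouse left out. From 12 h to 24 h in MC-38 the count of 1 became 2 under both rescalings, with coverage and with 2 groups, and 1 to 2 with a mouse left out. Untreated, the count of 10 became 5 under median-ratio scaling and 9 to 10 with a mouse left out, and the interaction count at 12 h was 0 to 1. Some uncalled changes turned direction. Under median-ratio scaling Cd68, Mertk and Cd14 at 12 h in RM-9 became 0.067, 0.1846 and 0.1251, Cd14 in MC-38 became -0.1302 at 3 h and -0.3255 at 12 h, Mertk at 12 h in MC-38 became -0.1678, and untreated Csf1r and Mertk, called before, became -0.0725 and -0.1089. Without mitochondrially encoded genes Mertk and Cd14 at 12 h in RM-9 became 0.1279 and 0.0569, and Cd14 in MC-38 became -0.0023 at 3 h and -0.1197 at 12 h. With a mouse left out, Cd14 ranged from -0.2782 to 0.0856, from -0.2488 to 0.0296 and from -0.0578 to 0.2206 at 3, 12 and 24 h in RM-9 and from -0.0345 to 0.1542, from -0.0395 to 0.0691 and from -0.1123 to 0.0848 in MC-38. Mertk at 12 h in RM-9 ranged from -0.1134 to 0.1325, Adgre1 at 24 h in RM-9 from -0.322 to 0.0178, Fcgr1 there from -0.2699 to 0.223, Cd68 at 3 h in MC-38 from -0.2868 to 0.0077, and the median of the 10 genes at 24 h in RM-9 from -0.2959 to 0.0537.

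Mouse numbers did not pair the tumors: deviations of mice with the same number had a median correlation over genes of -0.0607 in RM-9 (21 pairs) and -0.0725 in MC-38 (24 pairs). With the replicate block the median of the 10 genes at 24 h in RM-9 became 0.0049, Csf1r between 3 h and 12 h in RM-9 was no longer called, and the other counts of called members stayed the same, while the ligands and partners lower at 12 h in RM-9 went from 2 to 1. No read counts per gene were used, so the precision of levels near or below 1 TPM, such as those of Cx3cr1 in RM-9, rests on the spread between mice.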
